A study of Mus musculus with 6 samples.

Results

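The genes described are a set of 34 mouse genes tied to ATF4 and the integrated stress response, chosen by symbol for their known roles in amino acid synthesis, amino acid transport and stress signalling. Their symbols matched 35 of the 54532 gene identifiers, since Ddit3 has 2, and 32 of the 35 had a mean level of at least 1 FPKM and were tested among 10634 genes. FPKM is a level scaled to the length of the transcript and to the library's total of reads, so levels can be compared between genes. The set falls into 10 genes of eIF2 and transcription control, 9 stress effectors, 10 genes of amino acid and one-carbon synthesis and 5 amino acid transporters.

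The cells were immortalised macrophages grown out of mouse marrow, and RNA was sequenced from 6 libraries. In 3 of them a short hairpin RNA had been aimed at PGAM5, a protein phosphatase of mitochondria, and in the other 3 at DRP1, the GTPase that divides mitochondria. Interleukin-4 (10 ng/ml, 24 h) had been given to all 6 in high-glucose medium that held serum, pyruvate and glutamine, and the series asks how PGAM5 bears on the anti-inflammatory state. A control hairpin or cells without interleukin-4 are not analysed here, so a gene given as higher under PGAM5 knockdown is by the same value lower under DRP1 knockdown, and which knockdown moved it cannot be told apart. Whether libraries 1 to 3 of a knockdown are separate cultures or carry different hairpins is not in the titles; the p-values reflect the spread among libraries, and that spread may be technical.

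The integrated stress response starts with kinases that phosphorylate the initiation factor eIF2: PERK (gene Eif2ak3) under stress of the endoplasmic reticulum, GCN2 (gene Eif2ak4) when amino acids run short, and others for haem shortage, mitochondrial stress or viral RNA. Phosphorylated eIF2 lowers translation of most messages but lets ribosomes reach the main reading frame of Atf4, so ATF4 is set to a large part by translation and its RNA is only one layer of the response. ATF4 pairs with C/EBP-type proteins on amino acid response elements and drives genes for amino acid synthesis, uptake and tRNA charging, as well as its own feedback regulators. In macrophages the response has been linked to cytokine output and to the supply of serine, asparagine and glutamine. RNA was the only layer measured in these libraries.

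The sequences that carry this regulation are amino acid response elements, also called C/EBP-ATF elements, and the member promoters that hold the core TGATGNAA are shown here because their genes went in both directions in the data. RefSeq promoters (GRCm38.p6, 250 bases before to 50 after each start) were found for 30 of the 34 genes, in 36 windows; Cth, Eif4ebp1, Slc1a5 and Slc7a5 had none in the table. The genes were chosen for ties to ATF4, so the share of their promoters with the core is no result of these data. The core, searched on both strands, lay in 9 of the 36 windows, those of 9 genes, against 3.97% of all 32851 promoters of the same length. In 8 of them it lay before the start, and the 30 bases around it are given on the gene's strand from 5′ to 3′, with the core in capitals (a core on the opposite strand reads TTGCATCA). The ninth, Trib3, has it past the start.
Asns: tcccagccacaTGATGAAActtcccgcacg
Nupr1: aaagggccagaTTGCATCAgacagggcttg
Atf3: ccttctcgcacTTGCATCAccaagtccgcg
Pycr1: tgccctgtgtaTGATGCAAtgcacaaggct
Got1: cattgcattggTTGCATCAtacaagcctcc
Chac1: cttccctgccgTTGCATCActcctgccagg
Fgf21: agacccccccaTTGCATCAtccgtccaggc
Vldlr: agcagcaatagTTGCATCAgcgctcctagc

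Those windows lie at chr6:7693214-7693243 (Asns, minus strand), chr7:126625562-126625591 (Nupr1, minus), chr1:191183425-191183454 (Atf3, minus), chr11:120643833-120643862 (Pycr1, minus), chr19:43524689-43524718 (Got1, minus), chr2:119351038-119351067 (Chac1, plus), chr7:45615611-45615640 (Fgf21, minus) and chr19:27216809-27216838 (Vldlr, plus). In the GENCODE annotation the windows of Asns, Nupr1 and Vldlr fall inside an exon of a longer transcript of the same gene, the window of Atf3 falls between exons of its longer transcripts, and the other 4 lie outside their genes. All 8 carry the core, yet Asns, Nupr1, Atf3 and Pycr1 were higher under PGAM5 knockdown, Got1 was lower, Chac1 did not pass the test, and Fgf21 and Vldlr were too low to test. The 250 bases before the start of Got1 (chr19:43524606-43524855, minus strand), the member with the largest fall, read as follows, with the core in capitals.
Got1: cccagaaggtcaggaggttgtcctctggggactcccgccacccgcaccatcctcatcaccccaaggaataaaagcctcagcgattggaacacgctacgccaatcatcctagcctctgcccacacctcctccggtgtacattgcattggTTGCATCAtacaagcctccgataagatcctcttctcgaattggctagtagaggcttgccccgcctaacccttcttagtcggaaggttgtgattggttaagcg

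A second motif, the cAMP response element TGACGTCA, was in 1 member promoter, that of Ppp1r15a, and in 1.79% of all promoters. A match of letters is a description and shows no binding.

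The depth recovered from the values, which scales FPKM to whole reads, was 16111279 to 21933544 per library. The recovered reads summed over genes to more than this depth in every library, 17030469 to 23272463. Each knockdown showed in its own gene, with Pgam5 at 4.91 ± 0.31 against 17.2 ± 0.14 FPKM and Dnm1l, the gene of DRP1, at 17.9 ± 0.75 against 7.57 ± 0.55 FPKM under PGAM5 and DRP1 knockdown (mean ± SD, n = 3 libraries per group, as throughout). Of 10 macrophage markers, 9 were tested and 4 were lower under PGAM5 knockdown (Csf1r, Lyz2, Cd68 and Fcgr1), against 11.7% of all genes tested. The other 5 tested markers did not pass the test: Itgam (-0.14), Cd14 (-0.05), Ptprc (-0.03), Adgre1 (0.02) and Spi1 (0.01). For Cd14 all PGAM5 knockdown libraries lay below all DRP1 knockdown libraries. Mertk was near 0. The 10 summed to 3776 to 3947 FPKM under PGAM5 knockdown and 4827 to 4871 FPKM under DRP1 knockdown; their part in the results was not tested, and fewer cells of a type cannot be told apart from less RNA per cell. Markers of fibroblasts, T and NK cells, B cells, neutrophils, dendritic cells, erythroid cells and mast cells summed to at most 0.56 FPKM in any library. PGAM5 knockdown library 3 stood apart from its group: the chi-square per gene of recovered reads was 8.05 and 5.61 against libraries 1 and 2, and 2.65 to 3.26 in the other pairs within groups. Calls that turn on it are given with and without it.

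The set moved in both directions. Of the 32 genes tested, 13 were higher under PGAM5 knockdown, 4 were lower and 15 did not pass the test (limma on log2(FPKM + 1), Benjamini-Hochberg over all 10634 genes, threshold 0.05). Over all genes tested, 13.8% were called higher, 11.7% lower and 25.4% in either direction. By the libraries alone, 16 of the 32 had all 3 PGAM5 knockdown values above all 3 DRP1 knockdown values and 6 had them all below, against 23.0% and 20.5% of all genes. The median difference of the set was 0.077 on the log2(FPKM + 1) scale, against 0.009 over all genes.

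Most of these genes are abundant, and abundant genes were called more often: 21 of the tested members had a mean above 100 FPKM, and among the 520 genes above that level 28.1% were called higher and 16.2% lower, with a median difference of 0.059. Against that stratum, 8 of the 21 abundant members were higher and 3 lower. Under quantile normalization, which gives every library the same distribution of values, 12 of the 32 were higher and 7 lower, and the median of the set was 0.006, with 0.004 for all genes above 100 FPKM. The size of each difference was modest: the median absolute difference was 0.122 in the set and 0.105 over all genes, and 3 members (Ddit4, Gdf15 and Got1) differed by more than 0.5.

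**Figure D1:**
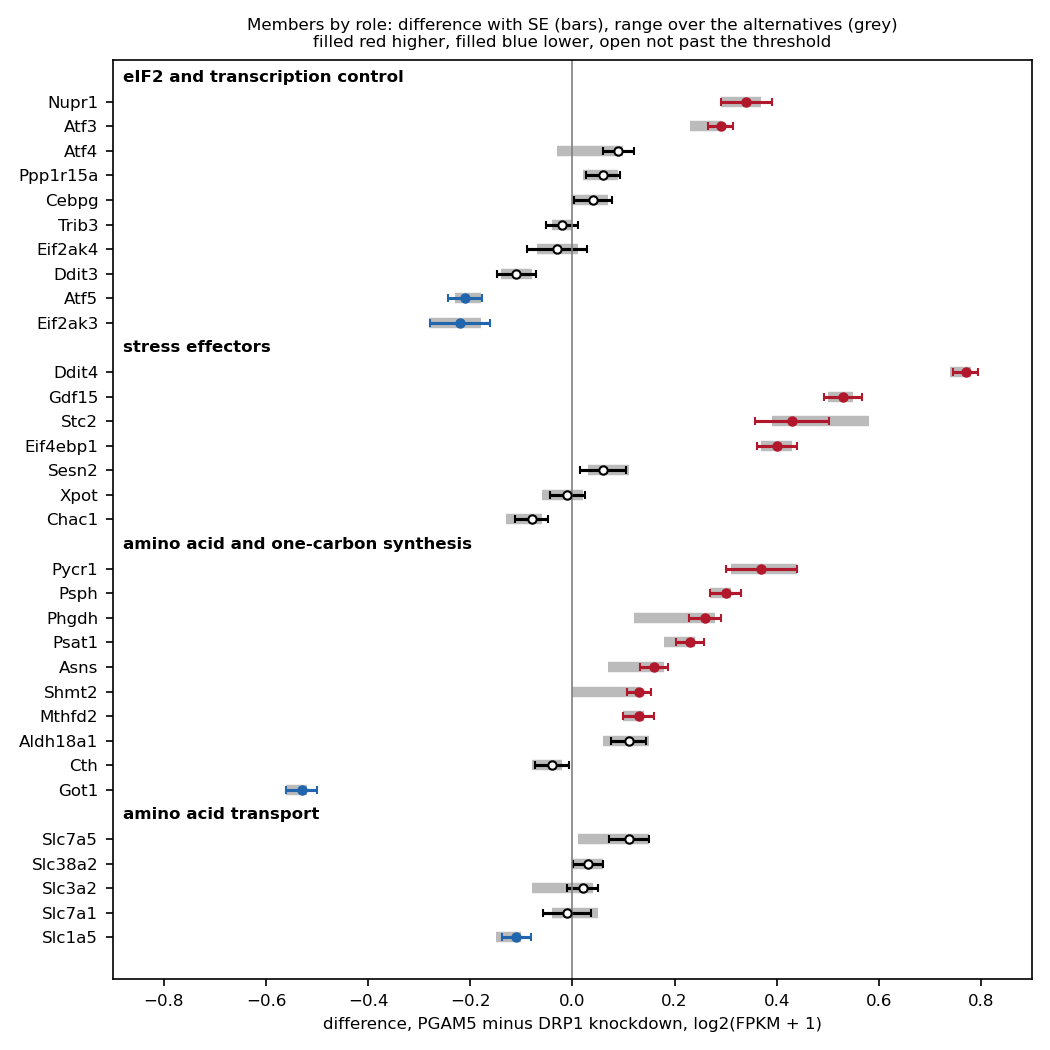
Difference of each tested member between PGAM5 and DRP1 knockdown on the log2(FPKM + 1) scale, by role; points are limma estimates, bars the SE, grey bands the range over 13 alternative settings, filled points passed the threshold. Ddit4 lies farthest to the right at 0.77 and Got1 farthest to the left at -0.53, while the bands of Atf4, Cebpg, Trib3, Eif2ak4, Xpot, Shmt2, Slc3a2, Slc7a1 and Slc38a2 reach or cross 0.

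Among the factors that set off and carry the response, 2 of 10 tested genes were higher under PGAM5 knockdown, 2 were lower and 6 did not pass the test. Their median difference was 0.012, and over all genes tested 13.8% were higher and 11.7% lower. The gene at the centre, Atf4, was not among the factors called. Atf4 (ENSMUSG00000042406, chr15:80255184-80257541, plus strand) was at 359.7, 358 and 373 FPKM under PGAM5 knockdown and 333.5, 345 and 346 FPKM under DRP1 knockdown. The groups did not overlap, but the gap in means, a ratio of 1.06, did not pass the test (difference of 0.09 in log2 with SE 0.030, adjusted p = 0.0641 by limma). It was called with voom on recovered reads (0.09, adjusted p = 0.024) and turned to -0.03 under quantile normalization (adjusted p = 0.328), the ends of the range of p over the 13 alternatives.

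Atf3, a bZIP factor induced by stress and by Toll-like receptor signals and a brake on inflammatory genes in macrophages, was the most abundant member of the set. Its levels were 774, 775 and 789 FPKM under PGAM5 knockdown and 633, 641 and 639 FPKM under DRP1 knockdown (ENSMUSG00000026628, chr1:191170296-191218039, minus strand). All 3 PGAM5 knockdown libraries lay above all DRP1 knockdown libraries, at 1.22 times their mean (difference of 0.29 in log2 with SE 0.025, adjusted p = 0.00029 by limma). Nupr1, a small chromatin-associated stress protein, went the same way, at 110.4, 112 and 122.5 FPKM against 87.6, 89.6 and 95.4 FPKM (ENSMUSG00000030717, chr7:126623249-126630861, minus strand). That is 1.26 times the mean of the DRP1 knockdown (difference of 0.34 in log2 with SE 0.050, adjusted p = 0.0032 by limma). Library 3 was the highest in both groups for Nupr1, and the gap between the groups was larger than this spread.

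Atf5, a second bZIP factor whose translation is also released by phosphorylated eIF2, went the other way. It was at 136, 129 and 138 FPKM under PGAM5 knockdown and 154.5, 155 and 158.5 FPKM under DRP1 knockdown, without overlap (ENSMUSG00000038539, chr7:44812256-44816658, minus strand; difference of -0.21 in log2 with SE 0.033, adjusted p = 0.00374 by limma). Its locus overlaps Il4i1 and Nup62 on the other strand, with a strand setting not given in the sources used here. Within each library, the ratio of Atf3 to Atf4 FPKM was 2.14 ± 0.027 against 1.87 ± 0.028, and that of Atf5 to Atf4 was 0.37 ± 0.0091 against 0.457 ± 0.0073. The 3 factors thus stood in different proportions in the 2 knockdowns, with no overlap of the libraries in either ratio.

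Eif2ak3, the PERK kinase, was expressed at a low level, 4.39, 4.52 and 3.94 FPKM under PGAM5 knockdown and 5.35, 4.98 and 5.17 FPKM under DRP1 knockdown (ENSMUSG00000031668, chr6:70844515-70905245, plus strand). The lower level under PGAM5 knockdown passed the test (difference of -0.22 in log2 with SE 0.058, adjusted p = 0.0293 by limma). The call was lost without PGAM5 knockdown library 1 (adjusted p = 0.0507) and without DRP1 knockdown library 1, 2 or 3 (0.1, 0.0604 and 0.0863), and with no filter on low values (0.0752), with differences of -0.20 to -0.24. Over all 13 alternatives its adjusted p was 0.0105 to 0.1. Eif2ak4, the GCN2 kinase, was at a like level in both groups, 4.635 ± 0.34 against 4.745 ± 0.13 FPKM, and did not pass the test (difference of -0.03 in log2 with SE 0.058, adjusted p = 0.75 by limma).

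Ddit3 (CHOP, a factor of prolonged stress linked to cell death) was at 125, 132 and 137 FPKM under PGAM5 knockdown and 140.4, 141.5 and 145 FPKM under DRP1 knockdown. Every PGAM5 knockdown library was the lower, yet the difference, a ratio of means of 0.925, did not pass the test (difference of -0.11 in log2 with SE 0.038, adjusted p = 0.0704 by limma). Without PGAM5 knockdown library 3, the highest of its group, the difference was -0.14 and passed (adjusted p = 0.0191), as it did under 3 other settings (adjusted p = 0.0104 to 0.197 over the 13 alternatives). Ddit3 overlaps Mars on the other strand, and a second Ddit3 identifier, a 105-base locus inside the first, was at 0 FPKM in all libraries. Trib3, a pseudokinase induced by ATF4 that feeds back on it, was at 185 ± 3.4 against 188 ± 5.3 FPKM (-0.02, limma adjusted p = 0.69). Ppp1r15a (GADD34), which brings a phosphatase back to eIF2, was at 111 ± 1.1 against 106 ± 3.9 FPKM (0.06, limma adjusted p = 0.218). Cebpg, a bZIP partner of ATF4, was at 45.4 ± 2.0 against 43.99 ± 0.55 FPKM (0.04, limma adjusted p = 0.439). None of these 3 passed the test, and their library values overlapped between the groups.

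**Figure D2:**
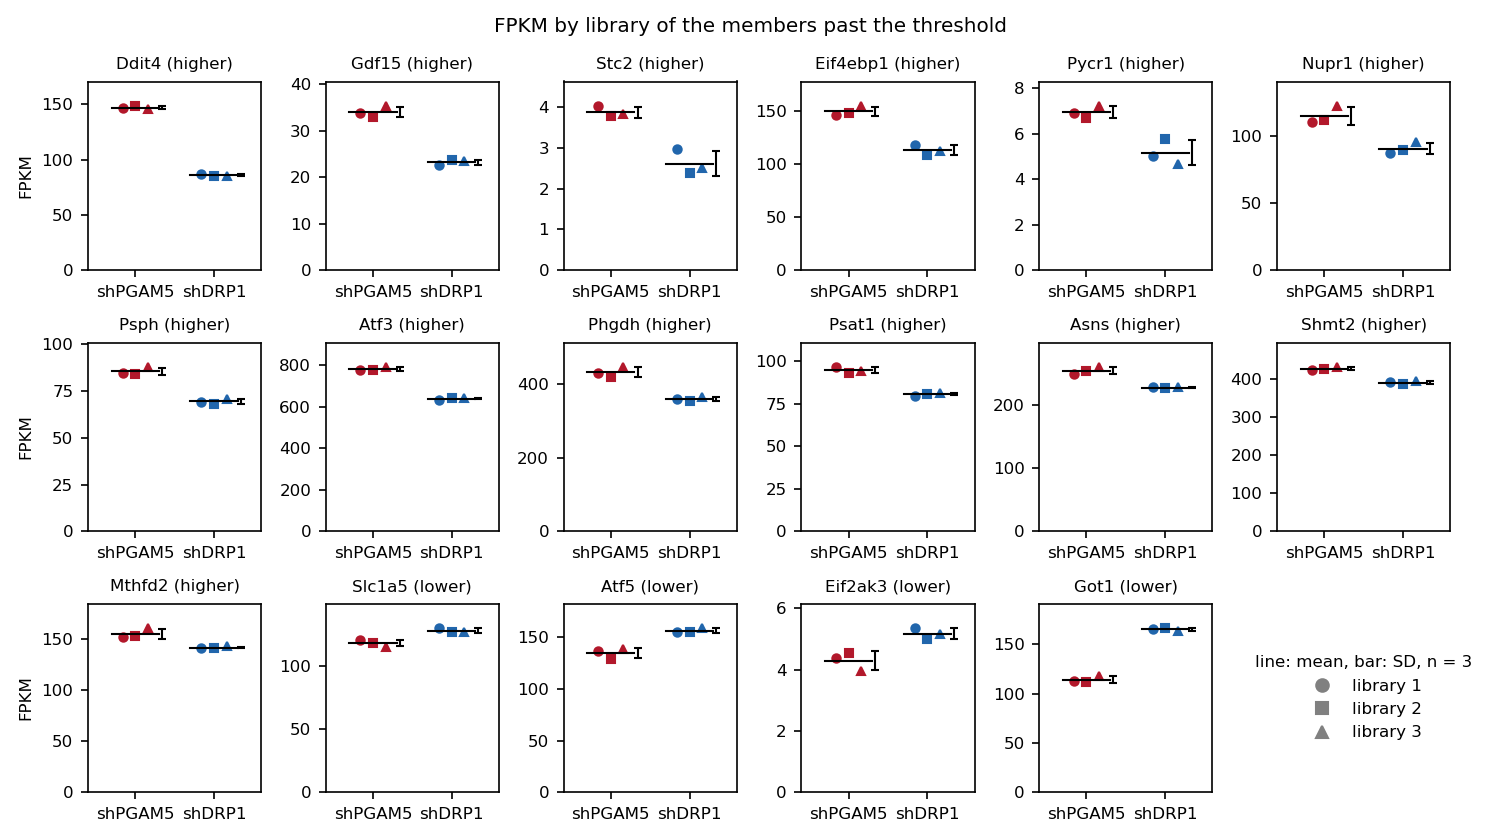
FPKM in each library of the 17 members past the threshold, with the group mean as a line and the SD as a bar (n = 3 per group); axes start at 0 and differ between panels. In all 17 panels the 3 libraries of one knockdown lie above the 3 of the other, from Ddit4 (145.8 to 148 FPKM against 85.2 to 87.0) to small gaps such as Mthfd2 and Slc1a5.

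Stress effectors held the largest rise of the set. Of 9 genes 7 were tested. Of these, 4 were higher under PGAM5 knockdown, none was lower and 3 did not pass the test, with a median difference of 0.403. The shares over all genes tested were 13.8% higher and 11.7% lower. The 4 higher effectors were a pair of brakes on growth and a pair of secreted proteins. Ddit4 (REDD1), which restrains the growth kinase complex mTORC1, stood at 147, 148 and 146 FPKM under PGAM5 knockdown and 86.97, 85.2 and 85.65 FPKM under DRP1 knockdown (ENSMUSG00000020108, chr10:59949669-59951834, minus strand). The SD was 1.31 and 0.925 FPKM, and the ratio of means was 1.71 (difference of 0.77 in log2 with SE 0.025, adjusted p = 6.71e-06 by limma). Ddit4 ranked 130 by absolute difference among the 10634 genes.

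Eif4ebp1, which holds back cap-dependent translation when mTORC1 is low, was at 146, 148 and 155 FPKM against 118, 108 and 113 FPKM (ENSMUSG00000031490, chr8:27260329-27276674, plus strand). It was 1.32 times as high under PGAM5 knockdown (difference of 0.40 in log2 with SE 0.039, adjusted p = 0.00049 by limma). Sesn2, a leucine sensor that also restrains mTORC1, was not called with all libraries: it was at 76.8, 78.75 and 70.05 FPKM under PGAM5 knockdown and 71.9, 71.9 and 71.7 FPKM under DRP1 knockdown (difference of 0.06 in log2 with SE 0.045, adjusted p = 0.343 by limma). PGAM5 knockdown library 3 was the lowest of all 6 for Sesn2, and without it the difference was 0.11 and passed (adjusted p = 0.0155; range over the alternatives 0.0155 to 0.688). The ratio of Ddit4 to Sesn2 FPKM was 1.96 ± 0.11 under PGAM5 knockdown and 1.2 ± 0.013 under DRP1 knockdown, with no overlap of the libraries, so these mTORC1 inhibitors did not differ by the same factor.

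Gdf15, a secreted cytokine of cell stress, was at 33.7, 33.1 and 35.3 FPKM under PGAM5 knockdown and 22.7, 23.7 and 23.4 FPKM under DRP1 knockdown (ENSMUSG00000038508, chr8:70629393-70632456, minus strand). Its mean was 1.46 times as high (difference of 0.53 in log2 with SE 0.037, adjusted p = 0.000109 by limma), with no overlap of the groups. Stc2, a secreted glycoprotein, was low but followed the same direction, at 4.01, 3.76 and 3.82 FPKM against 2.96, 2.38 and 2.49 FPKM (ENSMUSG00000020303, chr11:31357307-31370074, minus strand; difference of 0.43 in log2 with SE 0.073, adjusted p = 0.00528 by limma). Fgf21, a hormone of starvation, rested on 11 reads under PGAM5 knockdown and 6 under DRP1 knockdown over 3 libraries each, and was not tested. Vldlr, a lipoprotein receptor, had 0 reads in all 6 libraries, which allows up to 0.0136 to 0.0185 FPKM per library (3 reads; counting error only).

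Chac1, an enzyme that breaks down glutathione, is a well-known target of ATF4 and did not follow the 4 called effectors. It was at 86.4, 84.6 and 88.3 FPKM under PGAM5 knockdown and 90.4, 89.8 and 94.3 FPKM under DRP1 knockdown. Its libraries were all lower under PGAM5 knockdown, and the difference did not pass the test (difference of -0.08 in log2 with SE 0.032, adjusted p = 0.104 by limma), except under quantile normalization (-0.13, adjusted p = 0.0141; range over the alternatives 0.0141 to 0.295). Xpot, which exports tRNA from the nucleus, was at 99.7 ± 3.8 against 100.4 ± 1.3 FPKM and did not pass the test (-0.01, limma adjusted p = 0.854).

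In the synthesis group 7 of 10 genes were higher under PGAM5 knockdown, 1 was lower and 2 did not pass the test, with a median difference of 0.145. Over all genes tested 13.8% were higher and 11.7% lower, and among genes above 100 FPKM 28.1% and 16.2%. Under quantile normalization 6 genes of the group were higher and 1 lower. The 3 steps that make serine from a glycolytic intermediate were all among the 7 higher genes. Phgdh, the first step, was at 429.6, 420.1 and 446 FPKM under PGAM5 knockdown and 358.5, 355 and 366 FPKM under DRP1 knockdown (ENSMUSG00000053398, chr3:98313170-98339990, minus strand; difference of 0.26 in log2 with SE 0.031, adjusted p = 0.00116 by limma). Under quantile normalization its difference was 0.12, with the call kept (adjusted p = 0.0228; range over the alternatives 8.92e-06 to 0.0228). Near-identical sequence in Gm7901 and Gm9347 covers 84.6% of its longest transcript, so its level is uncertain.

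Psat1, the transaminase of the second step, was at 96.6, 93.3 and 94.5 FPKM against 79.9, 81.05 and 81.15 FPKM (ENSMUSG00000024640, chr19:15904678-15947337, minus strand; difference of 0.23 in log2 with SE 0.027, adjusted p = 0.00107 by limma). Psph, the phosphatase that releases serine, was at 84.6, 83.9 and 87.6 FPKM against 68.96, 68.1 and 70.7 FPKM (ENSMUSG00000029446, chr5:129765558-129787449, minus strand; difference of 0.30 in log2 with SE 0.030, adjusted p = 0.000603 by limma). It overlaps Cct6a on the other strand. The gaps in means of the 3 steps were 20.1%, 17.5% and 23.2%. The ratio of Phgdh to Psat1 FPKM overlapped between the groups, at 4.55 ± 0.14 and 4.46 ± 0.071, while that of Phgdh to Psph did not, at 5.06 ± 0.044 and 5.19 ± 0.016.

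Serine feeds the mitochondrial folate pathway, and its first enzymes differed less. Shmt2, which splits serine into glycine and a one-carbon unit, was at 423, 426.5 and 431 FPKM under PGAM5 knockdown and 392, 386 and 393 FPKM under DRP1 knockdown (ENSMUSG00000025403, chr10:127517123-127522444, minus strand). The 9.4% gap passed the test (difference of 0.13 in log2 with SE 0.024, adjusted p = 0.00844 by limma), but was lost under quantile normalization (-0.00, adjusted p = 0.92) and without DRP1 knockdown library 2 (0.12, adjusted p = 0.0509); over the alternatives its adjusted p was 0.000796 to 0.92. Shmt2 overlaps Ndufa4l2 on the other strand. Mthfd2, the next enzyme of that pathway, was at 152, 153 and 161 FPKM against 141, 141 and 143 FPKM (ENSMUSG00000005667, chr6:83305691-83325908, minus strand; difference of 0.13 in log2 with SE 0.030, adjusted p = 0.0202 by limma). The call was lost without DRP1 knockdown library 1, 2 or 3 (adjusted p = 0.0739, 0.0758 and 0.0617) and with no mean-variance trend (0.0534), each at a difference of 0.13, within a range of 0.00467 to 0.0758 over the alternatives.

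Mthfd1, the cytosolic counterpart of that route, was lower under PGAM5 knockdown at 16.95 ± 1.0 against 20.1 ± 1.4 FPKM (-0.23, limma adjusted p = 0.0302), a call lost under 5 of the 13 alternatives (adjusted p up to 0.0932). The ratio of Mthfd2 to Mthfd1 FPKM was 9.15 ± 0.3 under PGAM5 knockdown and 7.07 ± 0.51 under DRP1 knockdown, with no overlap of the libraries. The ratio of Shmt2 to its cytosolic form Shmt1 overlapped, at 68.3 ± 5.6 and 68.9 ± 2.5. The mitochondrial and cytosolic arms therefore stood in a different proportion at the Mthfd step and overlapped at the Shmt step.

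Asns, asparagine synthetase and a gene often read as a gauge of ATF4, was at 249, 254 and 260.0 FPKM under PGAM5 knockdown and 228, 226 and 228 FPKM under DRP1 knockdown (ENSMUSG00000029752, chr6:7675169-7693254, minus strand). The 11.8% gap passed the test (difference of 0.16 in log2 with SE 0.027, adjusted p = 0.00502 by limma) and shrank to 0.07 under quantile normalization, where it also passed (adjusted p = 0.0376; range over the alternatives 0.000524 to 0.0376). Of the proline enzymes, Pycr1, which makes the last, reducing step in mitochondria, was low and higher under PGAM5 knockdown, at 6.91, 6.68 and 7.20 FPKM against 5.03, 5.75 and 4.67 FPKM (ENSMUSG00000025140, chr11:120635712-120643769, minus strand; difference of 0.37 in log2 with SE 0.070, adjusted p = 0.00852 by limma). Aldh18a1, the enzyme before it, was at 135, 133 and 125 FPKM against 122, 120.2 and 121 FPKM and fell just short of the threshold (difference of 0.11 in log2 with SE 0.034, adjusted p = 0.0503 by limma). Without PGAM5 knockdown library 3 it passed (0.15, adjusted p = 0.0049), and under quantile normalization its difference was 0.06 (range of adjusted p over the alternatives 0.0049 to 0.384).

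Got1, the cytosolic aspartate aminotransferase that serves the malate-aspartate shuttle, was the member with the largest fall. It was at 112, 111 and 118 FPKM under PGAM5 knockdown and 165, 166 and 163 FPKM under DRP1 knockdown (ENSMUSG00000025190, chr19:43499752-43524605, minus strand). The highest PGAM5 knockdown library was still far below the lowest DRP1 knockdown library, and the ratio of means was 0.690 (difference of -0.53 in log2 with SE 0.030, adjusted p = 4.88e-05 by limma). The ratio of Got1 to its mitochondrial form Got2 was 1.1 ± 0.042 under PGAM5 knockdown and 1.63 ± 0.039 under DRP1 knockdown. Cth, which makes cysteine from cystathionine, was at 102 ± 3.6 against 105 ± 2.0 FPKM and did not pass the test (-0.04, limma adjusted p = 0.417).

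Of 5 transporters none was higher under PGAM5 knockdown, 1 was lower and 4 did not pass the test, with a median difference of 0.023. Over all genes 13.8% were higher and 11.7% lower. With voom, or without PGAM5 knockdown library 3, 1 transporter was higher (Slc7a5). Whether transport differed from synthesis was not tested. Slc1a5 (ASCT2), a carrier of glutamine and other neutral amino acids, was at 121, 119 and 116 FPKM under PGAM5 knockdown and 130.4, 127 and 127.5 FPKM under DRP1 knockdown (ENSMUSG00000001918, chr7:16781340-16798274, plus strand; difference of -0.11 in log2 with SE 0.028, adjusted p = 0.0221 by limma). The fall, to 0.923 of the other mean, was lost without PGAM5 knockdown library 2 (adjusted p = 0.0617), without DRP1 knockdown library 1, 2 or 3 (0.0894, 0.0678 and 0.067) and with no mean-variance trend (0.061), within a range of 0.00932 to 0.0894 over the alternatives.

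Slc7a5 (LAT1) carries large neutral amino acids such as leucine and works as a pair with Slc3a2 (CD98). Slc7a5 was at 281, 269 and 253.5 FPKM under PGAM5 knockdown and 248, 247.5 and 249 FPKM under DRP1 knockdown (difference of 0.11 in log2 with SE 0.039, adjusted p = 0.0825 by limma). The DRP1 knockdown libraries lay between 247.5 and 248.9 FPKM while those of the PGAM5 knockdown spread from 254 to 281 FPKM, with library 3 the lowest. Without that library the difference was 0.15 and passed (adjusted p = 0.00676), without library 1 it was 0.07 (adjusted p = 0.18), and under quantile normalization it was 0.01; adjusted p over the alternatives was 0.00676 to 0.943. Slc3a2 was at 267, 269 and 282 FPKM against 268, 266 and 271 FPKM (difference of 0.02 in log2 with SE 0.030, adjusted p = 0.612 by limma) and turned to -0.08 under quantile normalization (adjusted p = 0.0212; range over the alternatives 0.0212 to 0.984). The ratio of the 2 partners overlapped between the groups, at 0.984 ± 0.077 and 0.925 ± 0.007.

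Slc7a1, the carrier of arginine and lysine, was at 63.35 ± 4.0 against 63.6 ± 0.50 FPKM (-0.01, limma adjusted p = 0.927). Slc38a2 (SNAT2), which takes up small neutral amino acids and is induced when they run short, was at 118 ± 3.2 against 115 ± 0.65 FPKM (0.03, limma adjusted p = 0.428). Library values of both overlapped between the groups.

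Transcript length moved with PGAM5 knockdown library 3. Across 10630 tested genes with a length, the difference of this library from the mean of libraries 1 and 2 had a Spearman correlation of -0.361 with exonic length, against 0.009 for the same comparison under DRP1 knockdown. Over the 32 members the coefficients were -0.505 and -0.374. The genes share their libraries, so these are descriptions. Long members such as Slc7a1 (11530 bases, -0.16) and Eif2ak3 (6026 bases, -0.14) were lower in library 3, and short ones such as Ddit3 (1713 bases, 0.09) and Nupr1 (2514 bases, 0.14) were higher. The difference between the knockdowns correlated with length at -0.148 over all genes and -0.053 without library 3. Without it 16 members were higher and 5 lower, the added calls being Sesn2, Aldh18a1, Slc7a5 and Ddit3, each given above; the part of library 3 in the other results was not tested.

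**Figure D3:**
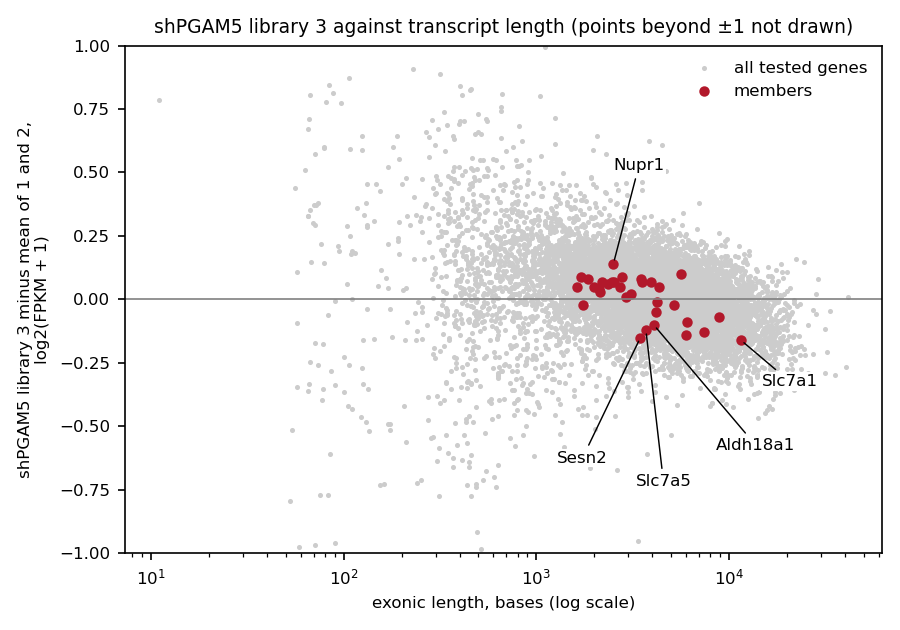
Difference of PGAM5 knockdown library 3 from the mean of libraries 1 and 2, log2(FPKM + 1), against exonic length in bases on a log scale, for all tested genes (grey) and members (red). The cloud slopes down with length; Nupr1 lies at 0.14 and Slc7a1 at -0.16.

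Genes of the same pathways outside the set were counted from lists taken by function. Their counts stand beside shares of 13.8% higher and 11.7% lower over all genes tested. Above 100 FPKM, where several of these genes lie, 28.1% were higher and 16.2% lower, with a median difference of 0.059. Of 20 cytosolic aminoacyl-tRNA synthetases, which load tRNAs and are ATF4 targets in many cells, 7 were higher under PGAM5 knockdown and 1 was lower, with a median difference of 0.056. Gars, for glycine, was at 286 ± 5.3 against 239.9 ± 0.82 FPKM (difference of 0.25 in log2 with SE 0.026, adjusted p = 0.000628 by limma), Cars, for cysteine, at 37.9 ± 1.1 against 32.65 ± 0.14 FPKM (0.21, limma adjusted p = 0.00352) and Dars, for aspartate, at 59.8 ± 3.3 against 51.5 ± 0.73 FPKM (0.21, limma adjusted p = 0.0106). The one lower gene was Wars, for tryptophan and also an interferon-induced gene, at 217.5 ± 5.5 against 253 ± 2.3 FPKM (difference of -0.22 in log2 with SE 0.028, adjusted p = 0.00174 by limma). Of 18 genes for eIF2, its exchange factor eIF2B and their regulators, 2 were higher and 2 lower. Impact, which restrains GCN2, was at 25.2 ± 0.71 against 31.7 ± 0.20 FPKM (-0.32, limma adjusted p = 0.000582), and Dele1, the relay of mitochondrial stress to the eIF2 kinase HRI, was at 19.6 ± 0.85 against 24.7 ± 1.4 FPKM (-0.32, limma adjusted p = 0.0045). Eif2b3, a subunit of eIF2B, was at 14.6 ± 0.27 against 13.1 ± 0.29 FPKM (0.15, limma adjusted p = 0.0222), and Eif2d, an initiation factor, at 6.49 ± 0.26 against 5.55 ± 0.083 FPKM (0.19, limma adjusted p = 0.0204).

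The other branches of the endoplasmic reticulum response, IRE1 and ATF6 with their chaperones, had 2 of 22 tested genes higher and 6 lower. Their median was -0.07, and the shares over all genes were 13.8% higher and 11.7% lower. The higher genes were Herpud1, at 132.5 ± 2.05 against 116.0 ± 4.24 FPKM (0.19, limma adjusted p = 0.00623), and Xbp1, at 165.4 ± 1.24 against 154.0 ± 4.08 FPKM (0.1, limma adjusted p = 0.0364). The largest fall was in Pdia6, a disulfide isomerase, at 76.4 ± 1.9 against 113 ± 2.0 FPKM (difference of -0.56 in log2 with SE 0.030, adjusted p = 4.18e-05 by limma). Sel1l, of the degradation machinery, was at 51.5 ± 1.8 against 65.6 ± 0.20 FPKM (-0.34, limma adjusted p = 0.000465), Sdf2l1 at 63.5 ± 4.0 against 75.6 ± 1.2 FPKM (-0.25, limma adjusted p = 0.00847) and Dnajc3, an inhibitor of PERK, at 19.05 ± 1.0 against 22.1 ± 0.85 FPKM (-0.21, limma adjusted p = 0.0202). Mitochondrial chaperones and proteases had 3 of 12 higher and none lower: Clpx (0.21) and Lonp1 (0.16), of protease systems of the matrix, and the chaperone Trap1 (0.13), with limma adjusted p = 0.0136, 0.00986 and 0.0379.

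Folate and glycine enzymes outside the set had 5 of 12 tested genes higher and 2 lower, with a median of 0.141. Shares over all genes were 13.8% higher and 11.7% lower. Mthfd1l, the mitochondrial enzyme after Mthfd2, was at 59.1 ± 0.32 against 45.4 ± 1.1 FPKM (0.37, limma adjusted p = 0.000215). Gcsh, of the glycine cleavage system, was at 36.5 ± 2.3 against 27.9 ± 0.39 FPKM (0.37, limma adjusted p = 0.00155) and Tyms, thymidylate synthase, at 4.91 ± 0.48 against 3.73 ± 0.16 FPKM (0.32, limma adjusted p = 0.0158). Other amino acid enzymes split, with 3 of 11 tested genes higher and 2 lower. Glutamine synthetase, Glul, was low and stood at 2.81, 2.58 and 2.86 FPKM against 5.51, 5.22 and 5.80 FPKM (difference of -0.80 in log2 with SE 0.058, adjusted p = 0.000144 by limma). The alanine aminotransferases were higher, Gpt at 7.39 ± 0.32 against 5.68 ± 0.47 FPKM (0.33, limma adjusted p = 0.00834) and Gpt2 at 34.02 ± 1.7 against 27.75 ± 0.23 FPKM (0.28, limma adjusted p = 0.00276).

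Amino acid transporters outside the set had 1 of 13 tested genes higher and 6 lower, with a median of -0.07. Slc7a8 (LAT2), a relative of LAT1, was at 3.91, 3.70 and 3.24 FPKM under PGAM5 knockdown and 7.73, 7.69 and 6.87 FPKM under DRP1 knockdown (difference of -0.87 in log2 with SE 0.072, adjusted p = 0.000253 by limma). Slc36a1, a proton-coupled carrier, was at 4.35 ± 0.27 against 6.74 ± 0.33 FPKM (-0.53, limma adjusted p = 0.000742), the taurine carrier Slc6a6 at 63.3 ± 3.8 against 81.2 ± 1.6 FPKM (-0.35, limma adjusted p = 0.00175) and Slc7a7 at 6.22 ± 0.88 against 7.77 ± 0.30 FPKM (-0.29, limma adjusted p = 0.0477). The one higher gene, chosen for mention after its value was seen, was Slc1a4, a relative of Slc1a5, at 40.7 ± 0.74 against 33.65 ± 1.0 FPKM (0.27, limma adjusted p = 0.00155). The calls of Eif2b3, Eif2d, Dnajc3, Trap1, Tyms and Slc7a7 were lost under 5, 6, 5, 9, 4 and 8 of the 13 alternatives, with adjusted p up to 0.0856, 0.0749, 0.0746, 0.201, 0.0588 and 0.141. Without PGAM5 knockdown library 3 the difference of Trap1 was 0.12 (adjusted p = 0.0693) and that of Slc7a7 -0.20 (adjusted p = 0.08), and neither passed. The lists were chosen with earlier results of these libraries known, so their counts are descriptions beside the 13.8% and 11.7% of all genes.

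**Figure D4:**
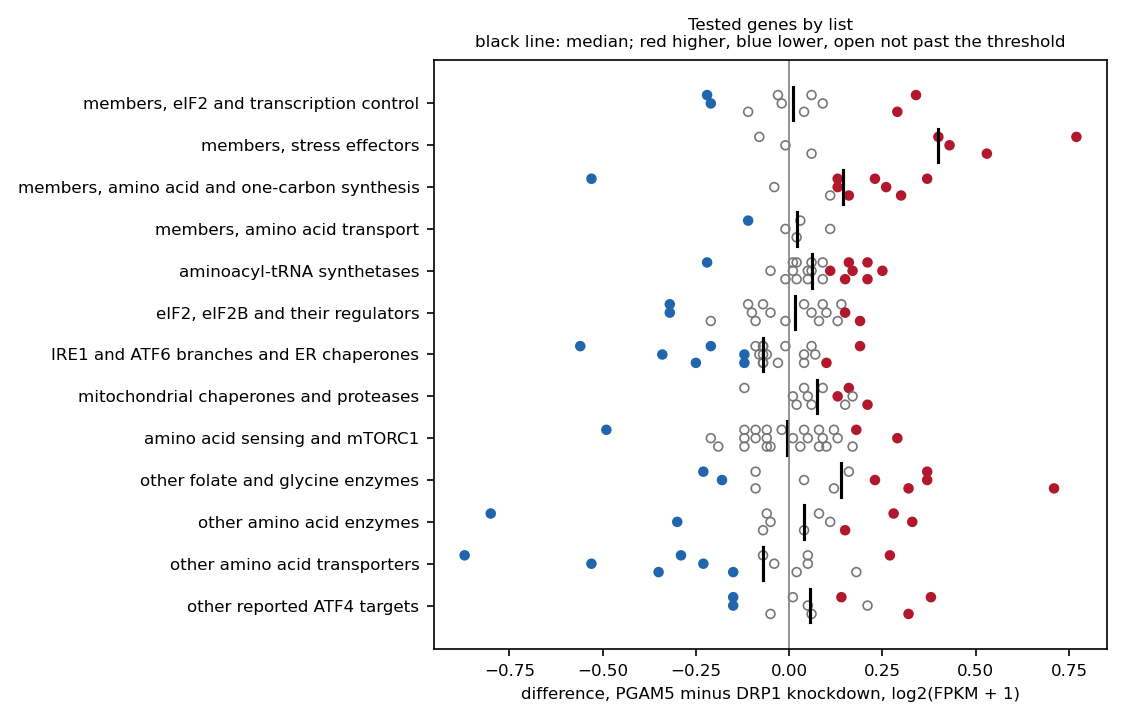
Difference of every tested gene between PGAM5 and DRP1 knockdown, log2(FPKM + 1), by list, with the 4 groups of members on top; black lines are medians, filled points passed the threshold. The median of the stress effectors is 0.403 and that of the member transporters 0.023, and the transporters outside the set have a median of -0.07.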

How the data were processed

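RNA sequencing of 6 libraries was analysed, 3 per knockdown, grouped by sample title. The deposited values are FPKM made by the authors, per the file headers; HISAT2 2.0.5, featureCounts 1.5.0-p3 and mouse build mm10 are named in the submitters' processing notes. Annotation release, strand setting and FPKM formula were not given in the sources used here. Symbols, coordinates and exonic lengths came from GENCODE M21, which matched 54495 identifiers and left 37 unmatched. FPKM times exonic length and 1 depth per library gave whole reads within 0.02 for 96.1% of values above 0; voom on those reads called 1653 genes higher and 1507 lower.

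Genes with a mean of at least 1 FPKM entered limma 3.58.1 (R 4.3.3) as log2(FPKM + 1) (empirical Bayes with trend, two-sided, Benjamini-Hochberg over all genes, threshold 0.05); the scale understates the change of low genes. Exact permutation of 3 against 3 libraries cannot give a two-sided p below 0.1 and was not used. The fit was also run on simulated reads with known changes. The simulation held no deviation of a single library such as that of PGAM5 knockdown library 3, so it cannot vouch for the calls here. Named genes are all members, up to 4 called genes with the largest difference per other list, and the targeted genes, with some items not reported here; Slc1a4, Mthfd1, the partner genes in ratios and the macrophage markers were added for context. The members and lists were chosen with earlier results of these data known. Shared sequence came from blastn 2.17.0 searches (97% identity over 100 bases). No library pair agreed within sampling noise. The 13 alternatives were a pseudocount of 0.1, no filter, no trend, quantile normalization, median-of-ratios rescaling, a replicate block, voom and leaving out each library.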

Additional observations from a re-analysis of the deposited data

How the results depend on the processing

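Of the 17 called members, 13 kept their call under all 13 alternatives; the others were Eif2ak3, Slc1a5, Mthfd2 and Shmt2. Over 32 members and 13 alternatives, 379 values kept their direction and side of the threshold, 11 passed it newly and 17 no longer passed. A further 2 changed sign with a call on one side, Shmt2 (-0.00) and Slc3a2 (-0.08), both under quantile normalization. Another 7 changed sign without passing in either fit: Atf4 (-0.03) and Slc38a2 (-0.00) under quantile normalization, Eif2ak4 (0.01), Xpot (0.02), Slc3a2 (-0.00) and Slc7a1 (0.05) without PGAM5 knockdown library 3, and Trib3 (0.00) without DRP1 knockdown library 1. The number of members called lower was 7 under quantile normalization and 2 with a replicate block, and 2 to 5 when 1 library was left out; that of members called higher was 11 to 16. In eIF2 and transcription control 1 gene was lower with no filter or with the replicate block, and 1 to 3 when 1 library was left out. Of the effectors, 1 was lower under quantile normalization. Of the transporters, 1 was higher with voom and 0 to 1 when 1 library was left out, while 0 were lower with no mean-variance trend or with the replicate block, 2 under quantile normalization and 0 to 1 when 1 library was left out. Over all genes, 819 to 1287 were lower and 980 to 1456 higher when 1 library was left out. The count lower was 822 without DRP1 knockdown library 2, 819 without DRP1 knockdown library 3 and 1287 without PGAM5 knockdown library 3. Each of these fits had 1 library fewer than the main fit, in which 1240 were lower. The median of the members was 0.09 with no filter, 0.006 under quantile normalization, 0.066 with median-of-ratios rescaling and 0.068 to 0.094 when 1 library was left out. The causes were not tested.

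The libraries share the numbers 1 to 3. Residuals of same-numbered libraries correlated at 0.021, 0.031 and 0, against -0.068 to 0.041 for other pairs. No shared deviation by number was seen, but these values cannot tell whether same-numbered libraries were handled together. With a replicate block, 13 members were higher and 2 lower, the lost calls being Eif2ak3 (adjusted p = 0.0608) and Slc1a5 (0.0527); 1161 genes were higher and 972 lower over all. Of other named genes, 441 values kept their side of the threshold and 53 did not pass it. Fgf21, with 11 and 6 reads per group, and Vldlr, with 0, were too low to test.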

Other observations

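Among genes reported elsewhere as ATF4 targets but outside the set, 3 of 10 tested were higher under PGAM5 knockdown and 2 lower. Their median difference was 0.058, and the shares over all genes tested were 13.8% higher and 11.7% lower. Ero1l, an oxidase for protein folding that is also induced by low oxygen, was at 129 ± 2.1 against 99.2 ± 1.8 FPKM (difference of 0.38 in log2 with SE 0.028, adjusted p = 0.000146 by limma), and Vegfa, a growth factor of blood vessels, was at 46.2 ± 0.62 against 36.75 ± 0.53 FPKM (difference of 0.32 in log2 with SE 0.028, adjusted p = 0.00032 by limma). The 2 that were lower were Sqstm1 and Cebpb. Sqstm1, an autophagy receptor, was at 1797, 1774 and 1835 FPKM under PGAM5 knockdown and 1994, 2004 and 2003 FPKM under DRP1 knockdown (difference of -0.15 in log2 with SE 0.027, adjusted p = 0.00731 by limma). Cebpb, a bZIP factor of macrophages, was at 398 ± 12 against 440.4 ± 12 FPKM (difference of -0.15 in log2 with SE 0.034, adjusted p = 0.0181 by limma). Under quantile normalization the difference of Sqstm1 was -0.09 and that of Cebpb -0.25. The call of Sqstm1 was lost with no filter on low values (adjusted p = 0.183) and that of Cebpb under 4 alternatives (adjusted p up to 0.0737).

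Of 26 tested genes of amino acid sensing upstream of mTORC1, 2 were higher under PGAM5 knockdown and 1 lower, with a median of -0.003. Among all genes tested, 13.8% were higher and 11.7% lower. Sec13, of the GATOR2 complex and of coat vesicles, was at 56.8 ± 2.9 against 46.1 ± 0.63 FPKM (difference of 0.29 in log2 with SE 0.040, adjusted p = 0.00228 by limma) and the GTPase Rraga at 106 ± 1.8 against 94.00 ± 5.3 FPKM (difference of 0.18 in log2 with SE 0.043, adjusted p = 0.0224 by limma). Lamtor2, of the lysosomal anchor of mTORC1, was at 27.9, 32.6 and 37.9 FPKM under PGAM5 knockdown and 48.5, 45.1 and 44.8 FPKM under DRP1 knockdown (difference of -0.49 in log2 with SE 0.099, adjusted p = 0.0112 by limma). The call of Rraga was lost under 6 of the 13 alternatives (adjusted p up to 0.106).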
